A study of Mus musculus with 7 samples.

Results

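The granulocyte and monocyte transcription factors examined here are 8 genes chosen by name, Cebpa, Cebpb, Cebpd, Cebpe, Spi1, Gfi1, Irf8 and Klf4, of 35976 gene symbols in the deposited count table. RNA had been sequenced from lineage-negative cells of mouse fetal liver, the stem and progenitor fraction left after magnetic removal of cells that carry markers of mature blood lineages. All embryos were C57BL/6, CD45.2(+) and at stage E14.5. The 4 knockout libraries came from Vav1-iCre Brd9fl/fl embryos, in which a recombinase driven by the Vav1 promoter, active in blood cells, acts on floxed Brd9 alleles. The 3 control libraries came from Brd9fl/fl embryos without the recombinase. Per the design text, floxed males were mated with floxed females that carried Vav1-iCre, so the mothers of both groups carried the recombinase. Brd9 encodes a bromodomain protein of ncBAF, a chromatin remodelling complex. The labels do not say whether a library is 1 embryo or a pool. The p-values therefore rest on the variation from library to library, which may be technical. Since the recombinase was in the knockouts alone, its own effects and the loss of Brd9 cannot be told apart. In bulk RNA, fewer cells of a type and less RNA per cell also cannot be told apart.

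Myeloid progenitors choose between granulocyte and monocyte fates through a small set of DNA-binding proteins. PU.1, the product of Spi1, and C/EBP alpha activate myeloid genes early. GFI1, a zinc finger repressor, and C/EBP epsilon then act in granulocyte formation, while IRF8 and KLF4 act in monocyte formation, and GFI1 and IRF8 oppose each other in bipotent progenitors. Several of these factors also work outside the blood, C/EBP alpha and beta in hepatocytes and KLF4 in epithelium and endothelium.

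Promoters are shown for Gfi1, the member that passed the test, for Irf8, its antagonist, and for Cebpa, an early factor that did not pass. RefSeq promoter entries (GRCm38.p6) matched 5 of the 8 members, Cebpa, Cebpb, Gfi1, Irf8 and Klf4, with 7 windows. Each line gives the 250 bases before a transcription start, 5′ to 3′ on the strand of the gene. Capitals mark a match, on either strand, to any of 5 short motifs, TTGCNNAA for C/EBP, GAGGAA for PU.1, AAATC for GFI1, GAAA, any 2 bases and GAAA for IRF factors and CACCC for KLF factors, and no matches overlapped in these windows.
Gfi1, chr5:107725806-107726055, minus strand: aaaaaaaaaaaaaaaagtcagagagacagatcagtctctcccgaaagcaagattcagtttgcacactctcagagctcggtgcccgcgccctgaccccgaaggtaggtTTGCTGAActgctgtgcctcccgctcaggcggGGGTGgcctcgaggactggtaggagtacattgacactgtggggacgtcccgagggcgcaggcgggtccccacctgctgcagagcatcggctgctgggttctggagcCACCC
Irf8, chr8:120736108-120736357, plus strand: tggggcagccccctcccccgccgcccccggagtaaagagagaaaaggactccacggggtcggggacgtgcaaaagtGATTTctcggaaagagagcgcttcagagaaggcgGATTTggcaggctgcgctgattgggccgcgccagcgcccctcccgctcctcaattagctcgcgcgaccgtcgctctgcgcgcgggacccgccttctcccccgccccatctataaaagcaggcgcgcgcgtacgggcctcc
Cebpa, chr7:35119043-35119292, plus strand: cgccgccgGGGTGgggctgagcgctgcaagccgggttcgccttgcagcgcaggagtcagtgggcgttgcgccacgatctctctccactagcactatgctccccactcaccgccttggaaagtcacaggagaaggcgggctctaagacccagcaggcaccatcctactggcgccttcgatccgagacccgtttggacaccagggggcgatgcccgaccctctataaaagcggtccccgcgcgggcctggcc
The Gfi1 window shown held 1 C/EBP match, which begins 143 bases before the start, and 2 KLF matches. The other Gfi1 window, chr5:107724344-107724593, held no match. The Irf8 window shown held 2 matches to the GFI1 letters, both in reverse orientation, which begin 174 and 140 bases before the start. The other Irf8 window, chr8:120738389-120738638, held 1 such match, 225 bases before its start. The Cebpa window held 1 KLF match. Of all 32851 windows of this length, 9.56% held the C/EBP letters, 32.7% those of GFI1 and 52.0% those of KLF factors. The PU.1 letters, present in 23.3% of all windows, and the IRF letters, present in 2.98%, occurred in none of the 7 windows of the members. A match is a string of letters, not a measured binding site.

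Total counts per library ran from 18748885 to 21861876 in the knockouts and from 21831430 to 23571878 in the controls. Levels are given in CPM, each count relative to its library total at a common scale, with TMM scaling, which evens out differences in RNA composition. Brd9 stood at 8.57 to 13.2 CPM in the knockouts and 30.6 to 36.5 CPM in the controls, so no library went against its label. All 6 progenitor markers (Kit, Cd34, Myb, Gata2, Flt3 and Cd48) were read in every library. They summed to 545 to 741 CPM in the knockouts and 734 to 969 CPM in the controls. Point estimates were lower in the knockouts for 5 and higher for 1. edgeR called 0 and DESeq2 called 1 lower, Kit, beside 1.88% of genes. Kit averaged 195 ± 23.5 CPM in the knockouts and 294 ± 24.0 CPM in the controls (SD, n = 4 and 3). For 2 of the 6 every knockout lay below every control, beside 6.81% of all tested genes. RNA of other cells was present. The 8 hepatocyte markers summed to 12631 to 22428 CPM in the knockouts and 9918 to 17442 CPM in the controls, and the 8 erythroid markers to 2927 to 4042 CPM in the knockouts and 1615 to 2844 CPM in the controls. Of the erythroid markers, edgeR called 0 and DESeq2 called 2 higher, beside 54 higher of the 17422 genes that DESeq2 tested. Without overlap of the groups 3 were higher, beside 643 of the 14679 genes that edgeR tested. Knockout replicate 3 stood apart, with 4 T cell markers summing to 53.6 CPM, against 7.86 to 9.80 CPM in the other knockouts. The controls held 4.72 to 5.01 CPM, so every knockout lay above every control. Of the 3 T cell markers tested, edgeR called 0. At an unadjusted p under 0.05, 3 were higher, beside 3.95% of all tested genes. DESeq2 called 1 higher, the 1 for which the groups did not overlap. Control replicate 2 had the lowest hepatocyte and erythroid sums of the 7 libraries and the highest level of 6 of the 8 members.

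Of the 8 factors, 1 passed the test: Gfi1 fell to 32.6% of the control mean. The other 7 had lower point estimates in the knockouts and did not pass. Cebpd stood at 51.1% of the control mean, Spi1, Cebpe, Irf8 and Klf4 between 66.3% and 70.5%, and Cebpa and Cebpb at 92.4% and 92.7%. The median log2 fold change of the 8 was -0.55, beside 0.011 over all 14679 genes tested. All 8 passed the filter on low counts.

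The test was edgeR's quasi-likelihood F test with a Benjamini-Hochberg adjusted p under 0.05 over all tested genes. The 1 lower member of 8 stands beside 0.545% of all tested genes called lower, and the 0 higher members beside 0.0136% called higher (0.559% in either direction). At an unadjusted p under 0.05 the lower members were 3, Gfi1, Cebpd and Spi1, and the higher members 0, beside 6.9% of all tested genes lower and 3.95% higher. DESeq2 called 2 members lower, Gfi1 and Cebpd, beside 1.88% of genes. In edgeR the count was 0 without knockout replicate 2 and 2 without knockout replicate 3, beside 20 and 116 of all genes called lower.

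**Figure D1:**
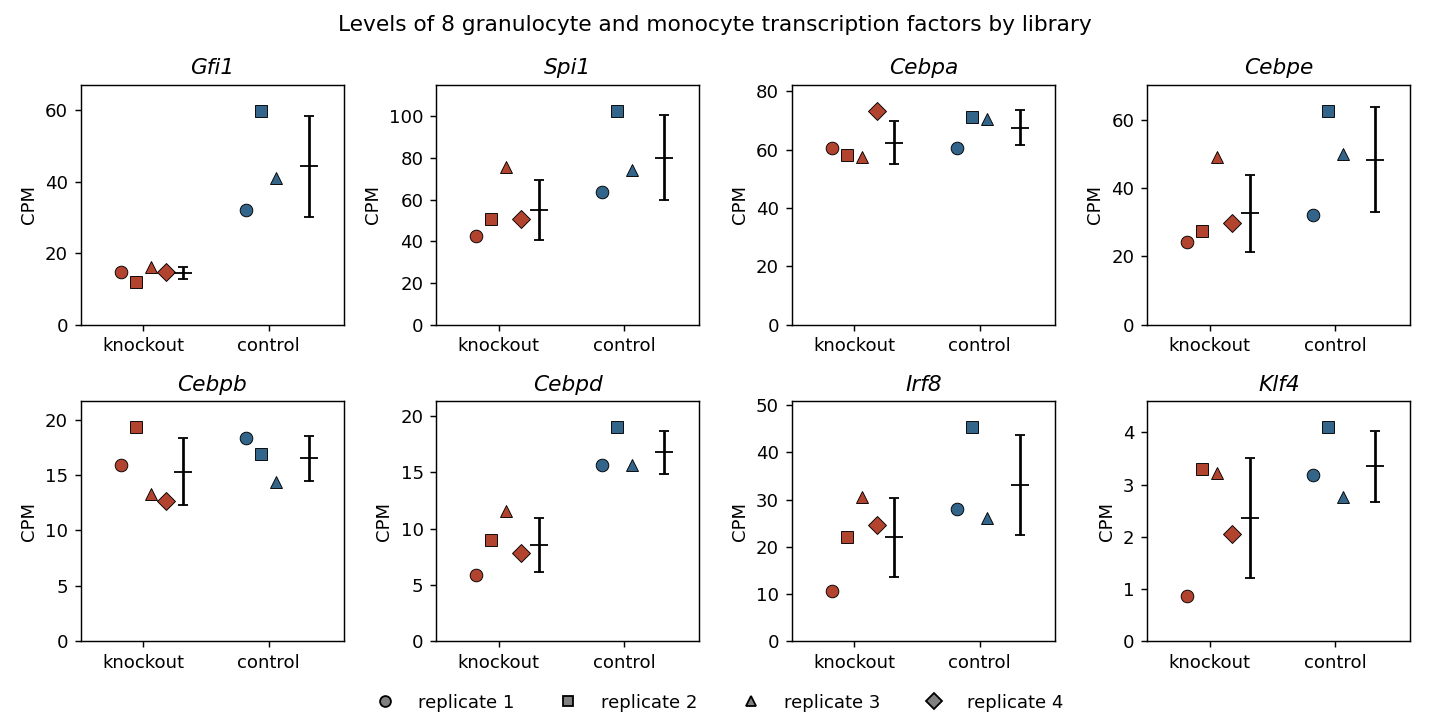
Level of each factor in CPM (linear axes from 0) in 4 knockout and 3 control libraries. Symbols give the replicate number and bars the mean ± SD; the groups do not overlap for Gfi1 and Cebpd, and knockout replicate 3 lies within the control range for Spi1, Cebpe, Irf8 and Klf4.

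Gfi1 (NCBI gene 14581, chromosome 5, 107716655 to 107725805, minus strand) encodes the repressor that granulocyte precursors need. Its level was 14.9, 12.1, 16.3 and 14.6 CPM in knockout replicates 1 to 4, against 32.2, 59.9 and 41.1 CPM in control replicates 1 to 3. The groups did not overlap, which held for 6.81% of all tested genes as lower in the knockouts and for 11.2% in either direction. The knockouts lay close together and the controls were spread widely, with a coefficient of variation of 12.2% in the knockouts and 31.9% in the controls.

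The Gfi1 means were 14.46 ± 1.76 CPM (SD, n = 4) in the knockouts and 44.4 ± 14.2 CPM (SD, n = 3) in the controls. The log2 fold change was -1.62 (SE 0.20, 95% interval -2.07 to -1.17; edgeR adjusted p = 0.0097), which is 3.07-fold lower. The exact two-sided permutation test over the 7 libraries gave p = 0.0286, the smallest it can give. The edgeR call was lost without knockout replicate 2, with a log2 fold change of -1.54 and an adjusted p = 0.0509. In that fit 20 of all genes were called lower, against 80 with all libraries.

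Spi1 (NCBI gene 20375, chromosome 2, 91082374 to 91115759, plus strand) encodes PU.1, the Ets factor that all myeloid lineages require. Its level was 42.8, 50.5, 75.8 and 50.7 CPM in knockout replicates 1 to 4, against 63.7, 102.7 and 74.1 CPM in control replicates 1 to 3. Knockout replicate 3 lay within the control range and the other knockouts below it. Spi1 had a log2 fold change of -0.54 (SE 0.21, 95% interval -1.01 to -0.08; edgeR adjusted p = 0.386), and the exact permutation p was 0.114. Without control replicate 2 the Spi1 value was -0.33 (edgeR adjusted p = 0.812).

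Cebpa (NCBI gene 12606, chromosome 7, 35119293 to 35121928, plus strand) encodes C/EBP alpha, without which granulocyte and monocyte progenitors do not form. Its level was 60.7, 58.1, 57.5 and 73.4 CPM in the knockouts, against 60.7, 71.3 and 70.6 CPM in the controls. The highest of all 7 libraries was a knockout, replicate 4. Cebpa had a log2 fold change of -0.11 (SE 0.11, 95% interval -0.35 to 0.12; edgeR adjusted p = 0.740), an interval that reaches from 1.28-fold lower to slightly higher in the knockouts.

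Hepatocytes also make Cebpa and Cebpb, and their RNA was in every library. All 8 hepatocyte markers had higher point estimates in the knockouts, none passed the edgeR test or was past an unadjusted p of 0.05, and DESeq2 called 0. Their sum was highest in knockout replicates 4 and 1, at 22428 and 21443 CPM, against 9918 to 17442 CPM in the controls. The part of these cells in the Cebpa and Cebpb levels was not tested.

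Cebpe (NCBI gene 110794, chromosome 14, 54710363 to 54712174, minus strand) encodes C/EBP epsilon, which acts late in granulocyte maturation and drives the genes of secondary granules. Its level was 24.2, 27.5, 49.2 and 29.7 CPM in knockout replicates 1 to 4, against 32.2, 62.8 and 50.0 CPM in control replicates 1 to 3. Knockout replicate 3 lay within the control range and the other knockouts below it, as with Spi1. Cebpe had a log2 fold change of -0.56 (SE 0.27, 95% interval -1.17 to 0.04; edgeR adjusted p = 0.504). Leaving out knockout replicate 3 gave -0.83 and leaving out control replicate 2 gave -0.33, neither called.

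Cebpb (NCBI gene 12608, chromosome 2, 167688915 to 167690432, plus strand) encodes C/EBP beta, the factor of emergency granulocyte formation and of macrophages. Its level was 15.9, 19.3, 13.3 and 12.7 CPM in the knockouts, against 18.3, 16.9 and 14.3 CPM in the controls, and a knockout, replicate 2, was the highest. Cebpb had a log2 fold change of -0.11 (SE 0.17, 95% interval -0.49 to 0.27; edgeR adjusted p = 0.850).

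Cebpd (NCBI gene 12609, chromosome 16, 15887286 to 15889545, plus strand) encodes C/EBP delta, an inflammation-responsive relative that is also made during granulocyte maturation. Its level was 5.90, 8.99, 11.6 and 7.80 CPM in knockout replicates 1 to 4, against 15.7, 19.0 and 15.7 CPM in control replicates 1 to 3. The groups did not overlap, and knockout replicate 3 was again the knockout nearest to the controls.

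For Cebpd the means were 8.57 ± 2.39 CPM (SD, n = 4) in the knockouts and 16.8 ± 1.92 CPM (SD, n = 3) in the controls. The log2 fold change was -0.97 (SE 0.21, 95% interval -1.44 to -0.49), with an edgeR adjusted p = 0.095 and an exact permutation p = 0.0571. The adjusted p was 0.0013 by DESeq2, 0.0265 in edgeR with no filter on low counts and 0.0260 in edgeR without knockout replicate 3, so its call turns on these choices. The authors' deposited DESeq2 values for Cebpd are the same, a log2 fold change of -0.97 and an adjusted p of 0.0013. They come from the same counts and add no separate evidence.

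Exons of 4 members share bases with genes on the opposite strand in the GENCODE M21 annotation. Gfi1 shares 101 bases with A430072P03Rik, which stood at 0.900 CPM in the knockouts and 1.03 CPM in the controls, and Cebpa shares 51 bases with Gm45091. Cebpb shares 312 bases with Tmem189, which stood at 25.2 CPM in the knockouts and 23.6 CPM in the controls, and Cebpd shares 562 bases with Spidr, at 35.8 CPM in the knockouts and 38.3 CPM in the controls. The library kit marks strand, but the strand setting of the counting is not given in the sources used here. Reads in the shared bases could therefore have been lost or wrongly assigned. The Cebpd exon is 3746 bases in GENCODE M21, longer than the RefSeq span printed for the gene. Since the annotation of the counting is not given either, whether the shared Cebpd bases were counted is not known.

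Irf8 (NCBI gene 15900, chromosome 8, 120736358 to 120756694, plus strand) encodes the interferon regulatory factor that steers progenitors to monocytes and dendritic cells. Its level was 10.6, 22.1, 30.6 and 24.6 CPM in knockout replicates 1 to 4, against 27.97, 45.3 and 26.2 CPM in control replicates 1 to 3. Knockout replicate 1 was the lowest library and knockout replicate 3 lay within the control range. The log2 fold change was -0.59 (SE 0.31, 95% interval -1.30 to 0.11; edgeR adjusted p = 0.562). It was -0.30 without control replicate 2 and -0.37 without knockout replicate 1, neither called.

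Klf4 (NCBI gene 16600, chromosome 4, 55527137 to 55532475, minus strand) encodes a zinc finger factor that promotes monocyte differentiation. Its level was 0.874, 3.30, 3.22 and 2.05 CPM in knockout replicates 1 to 4, from 16, 73, 68 and 42 reads. The controls held 3.18, 4.10 and 2.76 CPM, from 69, 99 and 60 reads. Knockout replicates 2 and 3 lay within the control range and knockout replicate 1 was again the lowest. The log2 fold change was -0.50 (SE 0.39, 95% interval -1.38 to 0.39; edgeR adjusted p = 0.694). Leaving out control replicate 2 gave -0.32 and leaving out knockout replicate 1 gave -0.23, neither called.

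**Figure D2:**
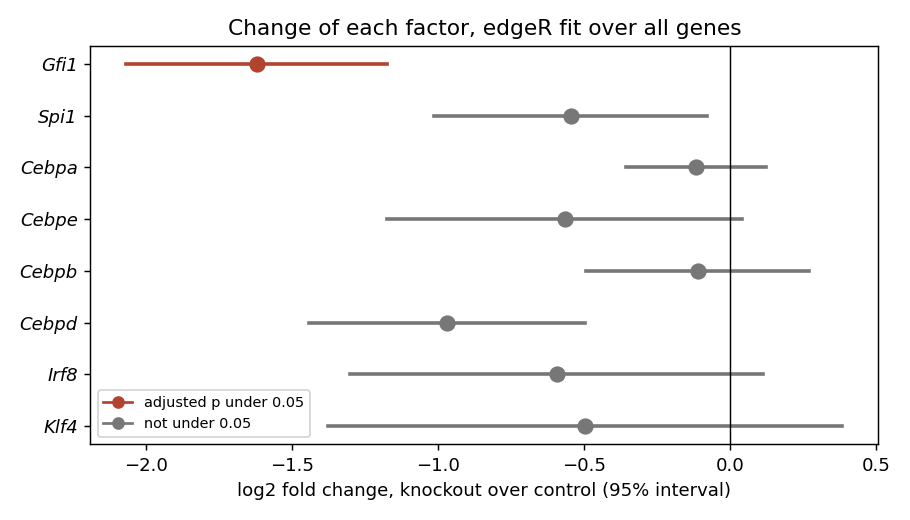
Log2 fold change of each factor, knockout over control, with its 95% interval from the edgeR fit over all genes; red marks an adjusted p under 0.05. Gfi1, at -1.62, lies farthest from 0, and the intervals of Cebpa, Cebpe, Cebpb, Irf8 and Klf4 include 0.

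Within the knockouts the members differed by library. Knockout replicate 1 had the lowest level of 5 of the 8 members among all 7 libraries, Spi1, Cebpe, Cebpd, Irf8 and Klf4. Knockout replicate 3 lay below every control for 4 members, and knockout replicates 1, 2 and 4 for 7, 6 and 7 members. For knockout replicate 1 these include Cebpa, at 60.7317 CPM against 60.7387 CPM in the lowest control, nearly the same level. Gfi1 and Cebpd were the 2 members for which every knockout lay below every control, which held for 6.81% of all tested genes.

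**Figure D3:**
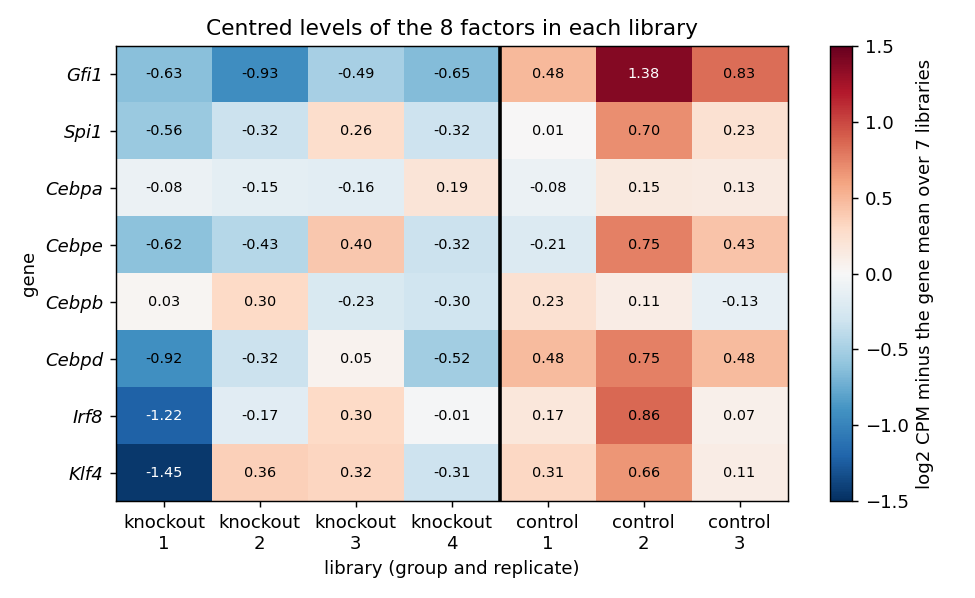
Log2 CPM of each factor (prior count 2) minus its mean over the 7 libraries, knockouts to the left of the line and controls to the right. Gfi1 is negative in all 4 knockouts and positive in all 3 controls, from -0.93 to 1.38, and knockout replicate 1 reaches -1.22 for Irf8 and -1.45 for Klf4.

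Likeness of 2 genes was measured as the root mean square difference between their log2 CPM over the 7 libraries, each centred on its own mean. Between members, Cebpe and Spi1 were the closest pair, at 0.133 log2 units. Irf8 and Klf4 were each other's nearest at 0.262 and Cebpa and Cebpb at 0.299. Gfi1 was farthest from its nearest fellow, Cebpd, at 0.428.

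Among 11960 other genes whose mean reached 1 CPM, the profiles nearest to Gfi1 were those of Tmem119, a membrane protein gene, B4galt6, a lactosylceramide synthase gene, and Fgl2, a fibrinogen-like protein gene, at 0.158, 0.159 and 0.171 log2 units. B4galt6 averaged 15.3 ± 1.40 CPM in the knockouts and 53.3 ± 16.4 CPM in the controls (SD, n = 4 and 3). The nearest to Cebpd were Sun2, which encodes a nuclear envelope protein, Gpr160, an orphan receptor gene, and Slco4c1, an organic anion transporter gene, at 0.128, 0.137 and 0.146. Sun2 averaged 90.6 ± 20.8 CPM in the knockouts and 186 ± 39.8 CPM in the controls.

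Compared per kilobase of the principal transcript in GENCODE M21, Spi1, Cebpe and Cebpa had the highest mean levels in both groups. Spi1 stood at 27.0 ± 7.07 CPM per kilobase (SD, n = 4) in the knockouts and 39.4 ± 9.92 (SD, n = 3) in the controls. Cebpe stood at 26.3 ± 9.06 in the knockouts and 38.9 ± 12.4 in the controls, and Cebpa at 23.8 ± 2.84 in the knockouts and 25.7 ± 2.25 in the controls. Neighbours within these 3 overlapped in both groups, and Spi1 was above Cebpe in 3 of 4 knockouts and 1 of 3 controls. Their order depends on the length used: with all exons of a gene merged, Cebpe came first, at 26.3 in the knockouts and 38.9 in the controls, and Spi1 stood at 20.4 in the knockouts and 29.7 in the controls. Klf4 was the least abundant, at 0.779 ± 0.378 in the knockouts and 1.10 ± 0.226 in the controls, and lay below Cebpd in every library.

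On the same scale Gfi1 held the fourth place in the controls, at 15.5 ± 4.95, and the sixth place in the knockouts, at 5.05 ± 0.616. Cebpb stood at 10.2 ± 2.01 in the knockouts and 10.99 ± 1.35 in the controls, and Irf8 at 7.72 ± 2.93 in the knockouts and 11.6 ± 3.72 in the controls. Gfi1 was above Irf8 in 3 of 3 controls and below it in 3 of 4 knockouts. That place depends on the transcript: with all exons of a gene merged, a length chosen after the data were seen, Irf8 was at 3.11 in the knockouts and 4.70 in the controls and Gfi1 stayed above it in both groups.

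How a ratio differs between libraries does not depend on transcript length, and ratios were compared without a test, since the members were chosen with earlier results known. The log2 ratio of Gfi1 to Irf8, the antagonists of the granulocyte and monocyte choice, was 0.48, -0.87, -0.91 and -0.75 in knockout replicates 1 to 4, against 0.20, 0.40 and 0.65 in control replicates 1 to 3. Knockout replicates 2, 3 and 4 lay below every control, and knockout replicate 1, where Irf8 was also low, lay among the controls. The mean differed by -0.93 between the groups.

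The log2 ratio of Cebpe to Cebpa, a late to an early granulocyte factor, was -1.33, -1.08, -0.22 and -1.30 in the knockouts, against -0.92, -0.18 and -0.50 in the controls, with the groups apart for all knockouts except replicate 3. That of Cebpa to Spi1 was 0.51, 0.20, -0.40 and 0.53 in the knockouts, against -0.07, -0.53 and -0.07 in the controls, again with knockout replicate 3 among the controls. The log2 ratio of Gfi1 to the summed early granule genes averaged -6.67 ± 0.36 in the knockouts and -6.80 ± 0.07 in the controls (SD, n = 4 and 3). The groups overlapped, and the difference of the means was 0.13. It was -0.0097 without knockout replicate 1 and 0.25 without knockout replicate 3, so its sign rests on 1 library.

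**Figure D4:**
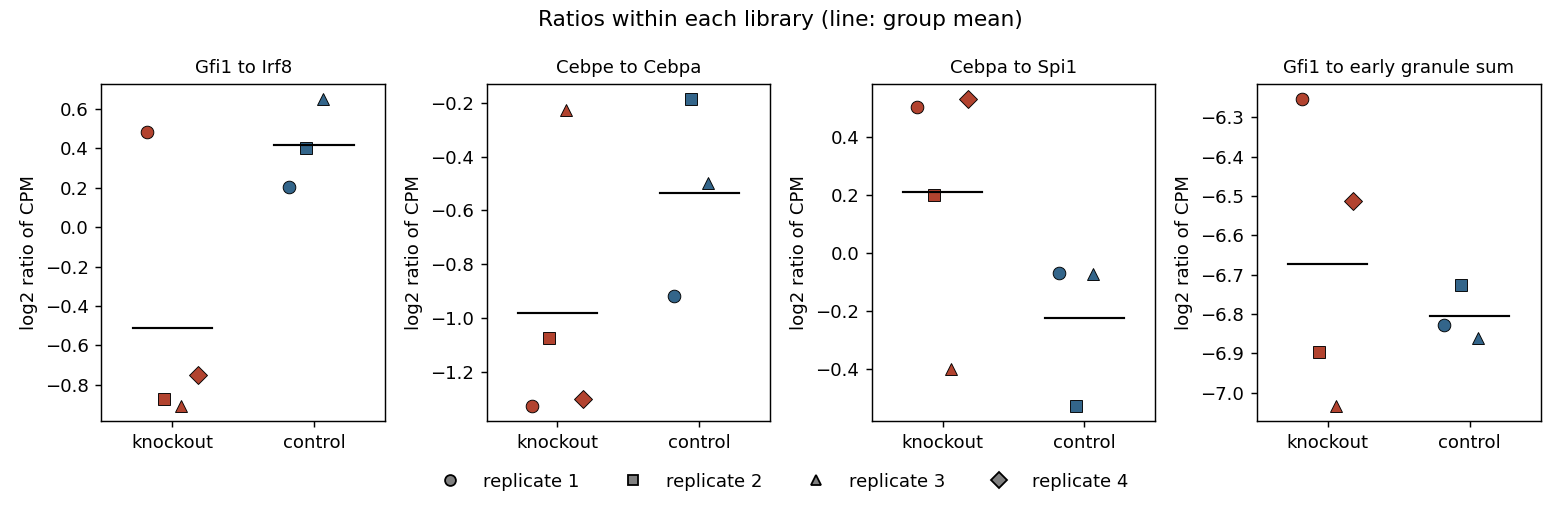
Log2 ratio of CPM within each library for 4 pairs, knockouts left and controls right, with lines at the group means. The 3 knockouts with a low Gfi1 to Irf8 ratio lie between -0.91 and -0.75, below all controls, and the ratio of Gfi1 to the early granule sum overlaps between the groups.

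Early granule genes, which PU.1, C/EBP alpha and MYB activate in promyelocytes, all fell. Of 6 tested, 6 fell and 0 rose, with a median log2 fold change of -1.57. The groups did not overlap for any, beside 6.81% of all tested genes lower without overlap. Elane, neutrophil elastase, fell to 49.7 ± 16.5 CPM in the knockouts, against 368 ± 106 CPM in the controls. Fcnb, a ficolin, had a log2 fold change of -3.12 and Prtn3 had -1.49. Ms4a3, a membrane protein gene that the list and its sum include, had -1.42. Without a single library between 1 and 6 of the 6 were called. The count was 1 when control replicate 3 or knockout replicate 2 was left out, 2 when control replicate 2 or knockout replicate 1 was, and 3 when knockout replicate 4 was. In those fits, in that order, 19, 20, 45, 49 and 35 of all genes were called lower, against 80 with all libraries.

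Late granule genes are those of which C/EBP epsilon is a known activator. Of 10 tested, 2 fell, 0 rose and 8 did not pass, with a median of -0.89, beside 0.545% of all tested genes called lower. At an unadjusted p under 0.05, 5 were lower and 1 higher, beside 6.9% and 3.95% of all tested genes. Camp, a cathelicidin, fell to 4.50 ± 3.04 CPM in the knockouts, against 179 ± 58.0 CPM in the controls, and Chil3, a chitinase-like protein, fell with a log2 fold change of -3.61. Ngp had -1.58 (edgeR adjusted p = 0.158) and S100a9 -1.13 (adjusted p = 0.253). The 1 late gene with a positive estimate, Mmp8, named after its value was seen, had 0.601, 1.58, 3.36 and 1.8 CPM in the knockouts, against 0.553, 0.745 and 0.092 CPM in the controls (log2 fold change 1.97, edgeR adjusted p = 0.32). The count was 5 without knockout replicate 3. It was 1 when any other knockout, or control replicate 2 or 3, was left out. Of all genes, 19 to 49 were called lower in those fits, 116 without knockout replicate 3 and 80 with all libraries.

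Monocyte genes held 1 member that fell of 8 tested, F13a1, a coagulation factor subunit, with 7.82 ± 2.95 CPM in the knockouts and 89.3 ± 24.4 CPM in the controls. All 8 had negative point estimates, with a median of -0.95. At an unadjusted p under 0.05, 4 were lower, beside 6.9% of all tested genes. Without overlap of the groups 3 were lower, beside 6.81%. Ly6c2, Ctss and Ccr2 had log2 fold changes of -1.89, -0.998 and -1.0 and did not pass (edgeR adjusted p = 0.055, 0.364 and 0.389). DESeq2 called 2 lower, beside 1.88% of genes. Without control replicate 1 or knockout replicate 3 edgeR called 2, beside 94 and 116 of all genes called lower. Macrophage markers, all 8 with lower point estimates in the knockouts, summed to 68.7 to 118 CPM in the knockouts and 148 to 238 CPM in the controls. Of these 8, edgeR called 0 and DESeq2 called 4 lower, beside 1.88% of genes. At an unadjusted p under 0.05, 5 were lower, beside 6.9% of all tested genes. The groups did not overlap for 5, beside 6.81% of all tested genes lower without overlap. The part of macrophages in the monocyte genes was not tested.

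Myeloid genes that depend on PU.1 had 0 of 12 called by edgeR, with a median of -0.43. At an unadjusted p under 0.05, 3 were lower, beside 6.9% of all tested genes. DESeq2 called 1 lower, beside 1.88% of genes. With no filter on low counts edgeR called 1 lower. Csf3r, which encodes the G-CSF receptor, averaged 26.5 ± 6.67 CPM in the knockouts and 60.7 ± 22.2 CPM in the controls (edgeR adjusted p = 0.095). Csf1r, which encodes the M-CSF receptor, averaged 35.3 ± 16.5 CPM in the knockouts and 60.9 ± 11.02 CPM in the controls (adjusted p = 0.479). Cd14 and Itgam had log2 fold changes of -0.99 and -0.67, and neither passed.

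Partner factors of the myeloid network, such as Runx1, Myb and Jun, had 0 of 26 tested called by edgeR or DESeq2. Their median was -0.15. At an unadjusted p under 0.05, 3 were lower and 1 higher, beside 6.9% and 3.95% of all tested genes. Maf, a factor of macrophages and lymphocytes, had a log2 fold change of -0.60 (edgeR adjusted p = 0.364). Jun had -0.34 and Gata2, a stem cell and mast cell factor, 0.49 (adjusted p = 0.418 and 0.451). The part of the macrophage marker difference in the Maf level was not tested.

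Closest relatives of the 8 factors, 21 genes of the C/EBP, Ets, GFI1, IRF and KLF families, had 0 called by edgeR or DESeq2. Their median was -0.09. At an unadjusted p under 0.05, 1 was lower, beside 6.9% of all tested genes. That gene was Spic, an Ets factor of red pulp macrophages, with 0.861 ± 0.622 CPM in the knockouts and 2.46 ± 0.42 CPM in the controls. Irf1, Klf10 and Irf7 had log2 fold changes of -0.35, -0.20 and -0.57 and did not pass. Gfi1b, the erythroid and megakaryocyte relative of Gfi1, averaged 126 ± 16.9 CPM in the knockouts and 112 ± 18.3 CPM in the controls, a log2 fold change of 0.17 (SE 0.13, edgeR adjusted p = 0.691).

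Genes that GFI1 is known to repress had 0 of 9 called by edgeR or DESeq2 and a median of 0.08, with 7 above 0. At an unadjusted p under 0.05, 1 was lower and 0 higher, beside 6.9% and 3.95% of all tested genes. That gene was Csf1, encoding M-CSF, with a log2 fold change of -0.44 (edgeR adjusted p = 0.430). Meis1 and Id1 had 0.28 and 0.15 and did not pass.

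**Figure D5:**
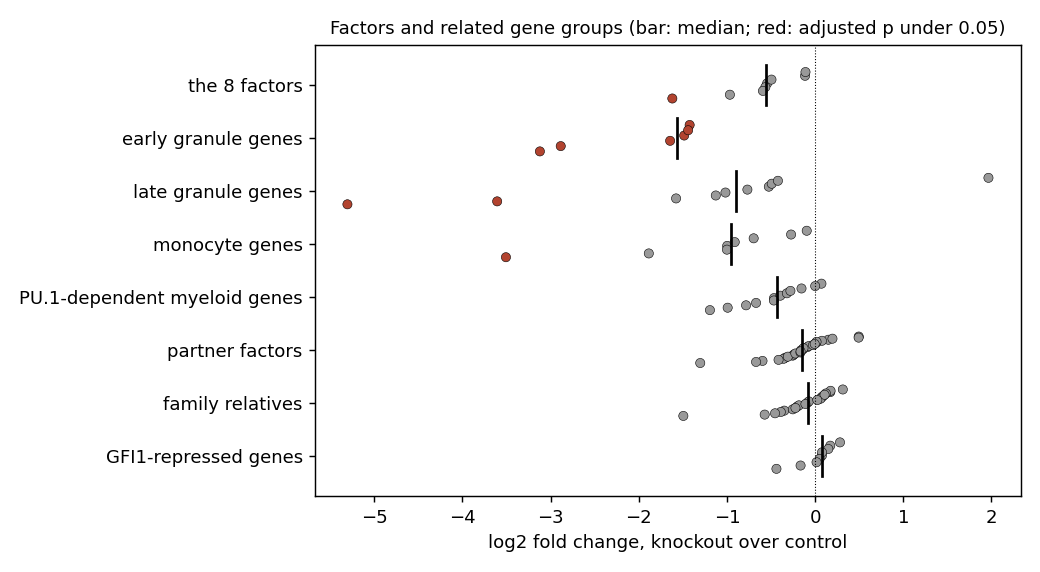
Log2 fold change, knockout over control, of the 8 factors and of the genes in 7 related lists, 1 point per tested gene, with a bar at the median and red for an edgeR adjusted p under 0.05. The medians are -1.57 for early granule genes, -0.55 for the 8 factors and 0.08 for GFI1-repressed genes.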

How the data were processed

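The labels give 4 knockout and 3 control libraries of polyA RNA, made with a kit that marks strand. Per the submitters' processing notes, the authors aligned reads with HISAT2 to mm10 and counted them with featureCounts. The sources used here do not give versions, annotation or strand setting. The authors deposited raw counts per gene symbol. Their deposited DESeq2 table adds log2 fold changes, a test score, p-values and a signal, which is each count divided by a size factor of 0.855 to 1.14.

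Genes were kept with edgeR's filterByExpr (edgeR 4.0.16, R 4.3.3), scaled by TMM, and tested with the quasi-likelihood F test with group as the only term. The adjustment covered all 14679 tested genes, at 0.05. Log2 CPM used a prior count of 2. The 95% intervals come from the fold change, its SE and the total degrees of freedom of the fit, residual plus those estimated from all genes. Each member also had an exact permutation test of log2 CPM. DESeq2 1.42.0 and limma-voom (limma 3.58.1) were alternatives. The code was tested on simulated data.

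Coordinates are 1-based, from RefSeq GRCm38.p6, the assembly that mm10 names; lengths and overlaps are from GENCODE M21. The members and the gene lists were chosen with earlier results of these data known. Named are all 8 members, up to 4 genes of each list with the smallest p, and the 3 profiles nearest to each of the 2 members with the smallest p, among genes with a proper symbol (no predicted genes or pseudogenes). A gene that this rule names is not reported here. Libraries of 1 group differed far beyond sampling noise, with a chi-square per degree of freedom of at least 8.50.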

Additional observations from a re-analysis of the deposited data

Results flagged for a closer look

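Among 12 sets of 4 knockout values checked for a library far from the others, the 8 member levels and the 4 ratios, 1 was picked out. The log2 ratio of Gfi1 to Irf8 was 0.48 in knockout replicate 1, against -0.91 to -0.75 in the other knockouts. Chance gives such a gap in about 1 of 20 sets (Dixon's test at the 95% level). The levels behind it were 14.9 CPM of Gfi1, close to the other knockouts, and 10.6 CPM of Irf8, against 22.1 to 30.6 CPM in the other knockouts.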

How the results depend on the processing

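The 8 members were refitted under 14 alternatives each, 112 fits in all, and the log2 fold change was negative in all 112. In 108 of them the member stayed on its side of the threshold. Gfi1 lost its call without knockout replicate 2 (-1.54). Cebpd gained a call with no filter (-0.97), with DESeq2 (-0.97) and without knockout replicate 3 (-1.15). Leaving out libraries gave -1.80 to -1.34 for Gfi1 and -1.15 to -0.83 for Cebpd. The number of members called lower was 2 with no filter and with DESeq2, and 0 to 2 without single libraries. Over all genes, 80 were called lower and 2 higher. With no filter 216 were lower and 12 higher, with DESeq2 328 and 54, and with a minimum mean of 1 CPM 1 was higher. Without single libraries 19 to 116 were lower and 1 to 4 higher. The cause of these shifts was not tested.

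Replicate numbers are shared between groups, and whether they pair the libraries could not be decided. Deviations of same-numbered libraries correlated at 0.17, -0.02 and -0.01, and those of differently numbered libraries at -0.19 to 0.13. Knockout replicate 4 has no control of its number, so it adds nothing to the group difference when replicate number is a block. With replicate number as a block, Gfi1 kept its call (-1.59, adjusted p = 0.0441), 1 member and 116 genes were called lower, and 5 genes higher. The block also called 2 PU.1-dependent genes, 1 partner factor and 2 monocyte genes lower, against 0, 0 and 1 without it. The alternative with merged exons as length moved only the level of Irf8 beyond its SD, but changed the order of the members. With 3 and 4 libraries, the 95% interval of Klf4 spans -1.38 to 0.39, so the data could not tell a moderate fall from none.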
